A study of Mus musculus with 12 samples.

Results

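The Hox genes encode homeodomain transcription factors, and the 39 protein-coding members measured here are all genes of the mouse RefSeq table (GRCm38.p6, the coordinates of mm10) whose symbol is Hoxa, Hoxb, Hoxc or Hoxd followed by a number. They are 39 of 21887 protein-coding genes. The series profiled back skin of mice aged 8 to 10 weeks, described by the submitters as in the growth phase of the hair cycle (anagen), by chromatin immunoprecipitation and sequencing. One antibody recognised p53, a transcription factor that DNA damage activates, and the other trimethylated lysine 4 of histone H3 (H3K4me3), which marks promoters in use. There were 12 samples, 2 for each combination of time (T0 or 6 h) with H3K4me3 in wild-type skin, p53 in wild-type skin or p53 in K17KO skin, which makes 6 groups. All 12 samples, those at T0 included, carry the treatment label of ionizing radiation, and the protocol gives 5 Gy. K17KO is the labels' only description of the mutant, and the sources used here do not say whether the gene is lost in all cells. They also do not say whether T0 precedes the radiation, or how many animals gave each sample.

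The values came from 3 peak lists, which were not split by time or replicate. There were 2909 peaks of WT p53, 1101 of K17KO p53 and 5464 of H3K4me3. Each peak has a fold enrichment from the authors' peak caller, the fragment pileup at the summit over the local background. A genotype is named for the K17KO list alone, and the other p53 list was taken to be WT by inference. The median peak rested on 7, 11 and 148 fragments in that order. Back skin holds several cell types. Of 12 keratinocyte markers 3 (25%) had an H3K4me3 peak inside or within 5 kb, close to the 23.9% of all protein-coding genes. They were Krt1 (4.84-fold), Krt10 (4.28-fold, on 9 fragments) and Krt15 (2.69-fold), while the defining basal markers Krt5 and Krt14 had none. Of 20 markers of fibroblasts, endothelium, immune cells, melanocytes, adipocytes and muscle, Col1a2 (1.83-fold) and Plin1 (1.86-fold) had such a peak. The comparison is the same 23.9%, and these markers do not show which cells carried the mark. In a bulk tissue a mark in few cells and a weak mark in many cannot be told apart. No value below has a replicate error, and no test between groups was possible. A gene without a peak was not thereby shown to lack the mark or p53, because no detection limit was tested.

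Hox genes lie in 4 clusters, Hoxa to Hoxd, on separate chromosomes. Within a cluster the genes share a transcriptional direction, and their order follows the order in which they are used along the body axis, from anterior genes with low numbers to posterior genes with high numbers. Trithorax group complexes deposit H3K4 methylation at active Hox genes, and Polycomb group complexes keep the others silent. Skin fibroblasts and keratinocytes keep a Hox code of their body site into adult life. Hoxc13 has a separate role in the hair matrix, where it drives hair keratin genes, and mice without it lack normal hair.

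A member had a peak when the peak's midpoint lay inside the gene or within 5 kb of its ends. By this rule H3K4me3 peaks lay at 15 of 39 Hox genes (38.5%), against 23.9% of all protein-coding genes. K17KO p53 peaks lay at 5 members (12.8%), against 3.79% of all protein-coding genes, and all 5 were posterior genes. No member had a WT p53 peak, against 6.75% of all protein-coding genes. Members are short, with a median length of 3737 bp against 17169 bp for all protein-coding genes, and the rule counts peaks anywhere inside a gene. With only peaks within 5 kb of either gene end counted, the WT p53 share of all protein-coding genes was 2.72%. With q limited to 0.1 and to 0.01 by the main rule, that share was 4.07% and 0.822%. The K17KO p53 shares under the same limits were 3.79% and 2.77%. The 15 genes rested on 19 H3K4me3 peaks and the 5 genes on 3 p53 peaks, because neighbouring members shared peaks. Members are therefore not independent of each other, and these shares are descriptions without a test.

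**Figure D1:**
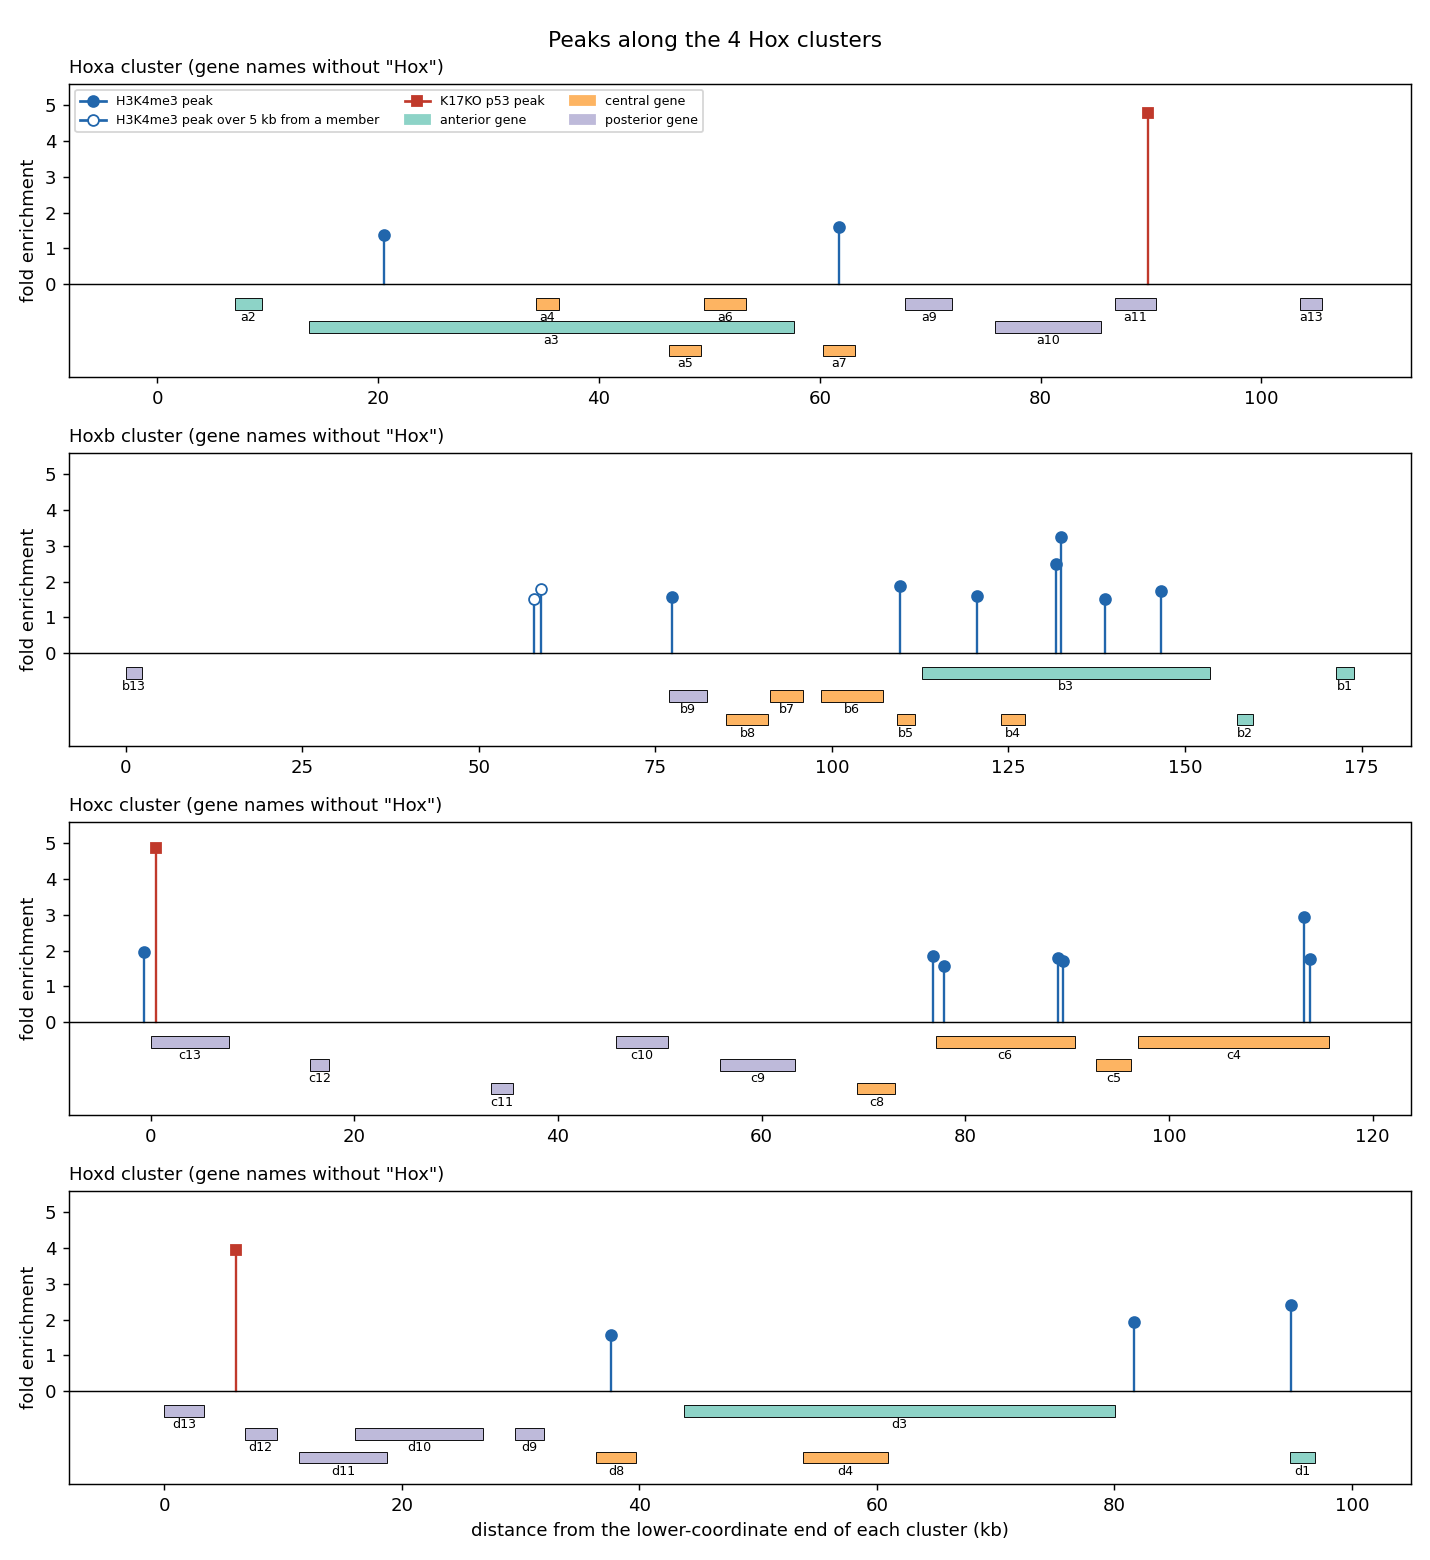
Fold enrichment of each peak (vertical axis) against its distance in kb from the lower-coordinate end of each cluster (horizontal axis), with member genes drawn to scale below and coloured by class. The 3 K17KO p53 peaks (squares) stand at Hoxa11, Hoxc13 and between Hoxd13 and Hoxd12, and the H3K4me3 peaks (circles) are most numerous in Hoxb and Hoxc, with 7 each at members. Open circles are H3K4me3 peaks over 5 kb from any member.

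The clusters differed in their H3K4me3 peaks. Hoxc had peaks at 5 of 9 genes and Hoxb at 5 of 10, with 7 peaks in each. Hoxd had peaks at 3 of 9 genes and Hoxa at 2 of 11, with 3 and 2 peaks. Per 100 kb of member genes and their 5 kb margins this was 5.96 peaks in Hoxb, 5.85 in Hoxc, 2.94 in Hoxd and 1.78 in Hoxa. Over all 4 clusters the density was 4.20 per 100 kb, against 0.407 around all protein-coding genes. Hox genes are also packed more densely, at 8.63 genes per 100 kb against 1.85, and counted per gene the values were 0.487 peaks in the clusters and 0.220 over all protein-coding genes.

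The H3K4me3 peaks were also uneven by position within the clusters under the 5 kb rule. Central genes (paralogue groups 4 to 8) had an H3K4me3 peak in 9 of 15 cases (60%), and anterior genes (groups 1 to 3) in 4 of 8 (50%). Posterior genes (groups 9 to 13) had one in 2 of 16 cases (12.5%), namely Hoxb9 and Hoxc13. The share of all protein-coding genes was 23.9%. All 4 central Hoxc genes and all 3 members of paralogue group 3 (Hoxa3, Hoxb3 and Hoxd3) had a peak. These group 3 genes have long annotated spans of 44009, 40830 and 36279 bp. Hoxc5 and Hoxc8 had no H3K4me3 peak inside the gene and counted peaks that also counted for Hoxc6. Neither member of group 2, nor any member of groups 10, 11 or 12, had one. With a 20 kb window 31 members counted a peak, among them the posterior Hoxa9, Hoxa10, Hoxc9, Hoxc12, Hoxd9, Hoxd10 and Hoxd11. The rule counts peaks anywhere inside a gene, and the class shares were not adjusted for length. Members with an H3K4me3 peak had a median length of 5266 bp, and those without one 3542.5 bp. The K17KO p53 peaks lay at 5 of the 16 posterior genes and at none of the 8 anterior or 15 central genes, against 3.79% of all protein-coding genes. These 5 genes rested on only 3 peaks. Neighbours shared H3K4me3 peaks as well, so the class counts are not of independent genes and were not tested.

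Hoxc13, the hair shaft regulator at the posterior end of its cluster, was the only member with both an H3K4me3 and a p53 peak by this rule. It lies on chromosome 15 from 102921131 to 102928814. The K17KO p53 peak spanned 102921463 to 102921915, centred 558 bp inside the lower-coordinate end of the gene, at 4.87-fold with 12 fragments over a background of 1.67. The H3K4me3 peak spanned 102920352 to 102920697, 606.5 bp outside the same end, at 1.96-fold with 56 fragments over 28.0. That end is the start of the gene if Hoxc13 has the plus orientation that the promoter table lists for Hoxc4 of the same cluster. The p53 and H3K4me3 peaks did not overlap and were 766 bp apart. Within their lists they were not extreme, with 59.7% of K17KO p53 peaks and 68.5% of H3K4me3 peaks at a lower fold. The nearest WT p53 peak lay 438 kb away, the largest such distance of the 39 members.

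Between Hoxc13 and the central part of the cluster, Hoxc12, Hoxc11, Hoxc10 and Hoxc9 had no peak in any list. Their nearest H3K4me3 peaks lay 13.6 kb (Hoxc9) to 34.0 kb (Hoxc11) away. The next peaks were a pair at the lower-coordinate end of Hoxc6, a thoracic patterning gene. The first, from 102997882 to 102998140, lay 215 bp outside that end at 1.86-fold with 72 fragments over 38.3. The second, from 102998840 to 102999229, lay 808.5 bp inside it at 1.56-fold with 157 fragments over 100.04. This pair also fell within 5 kb of Hoxc8, which patterns the thoracic skeleton, at 3736 and 4759.5 bp. A further pair lay inside Hoxc6 near its other end, at 1.78-fold and 1.71-fold, and counted for Hoxc5 as well.

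The highest Hoxc value was at Hoxc4, the most anterior gene of this cluster. Its peak spanned 103034247 to 103034526 at 2.94-fold with 34 fragments over 10.9, and 85.4% of the list was lower. A second, weaker peak followed 224 bases away at 1.77-fold with 52 over 29.0. The midpoint of the stronger peak lay 8.5 bp upstream of the Hoxc4 start in the RefSeq promoter table. That listed start lies inside the annotated gene, which runs from 103018097 to 103036856 on the plus strand, and the peak was nearest the far end of the gene, at 2469.5 bp. The window from 250 bases before to 50 after that start (chr15:103034145-103034444, plus strand, GRCm38.p6) is shown because a peak sits on a listed start here, with capitals marking the 198 bases inside the peak.
Hoxc4: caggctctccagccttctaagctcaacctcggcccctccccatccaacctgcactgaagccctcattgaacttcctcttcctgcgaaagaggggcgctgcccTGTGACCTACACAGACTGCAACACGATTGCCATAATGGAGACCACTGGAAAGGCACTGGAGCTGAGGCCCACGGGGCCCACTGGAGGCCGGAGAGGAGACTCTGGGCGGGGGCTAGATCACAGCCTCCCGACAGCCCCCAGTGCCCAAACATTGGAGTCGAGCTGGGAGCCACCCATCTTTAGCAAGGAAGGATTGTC
This window was 60.3% GC but held 9 CG dinucleotides, against a median of 13 in the windows of all protein-coding genes.

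In the Hoxb cluster most H3K4me3 peaks were counted for Hoxb3, a hindbrain and neck patterning gene with a long annotated span of 40830 bp. Hoxb3 counted 6 H3K4me3 peaks, 5 of them inside the gene, and only 4 protein-coding genes of the table reached 6. At least 2 H3K4me3 peaks were counted for 7 of 39 Hox members (17.9%), against 4.20% of all protein-coding genes. The strongest peak of all members, from 96326619 to 96327049 on chromosome 11, reached 3.25-fold with 37 fragments over 10.7. It lay inside Hoxb3, 5196 bp from the nearest end of a member, which belonged to Hoxb4. Its neighbour 415 bases away had 2.49-fold with 62 fragments over 24.3, and 79.8% of the list was lower. The other 3 peaks inside Hoxb3 had 1.50-fold to 1.75-fold.

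Hoxb4, known for expanding blood stem cells, lies within the Hoxb3 span and had no peak inside it, but peaks 3407 and 4407 bp away. Hoxb5 held a peak from 96303736 to 96304110, 411 bp from its lower-coordinate end, at 1.88-fold with 124 fragments over 65.4. Its −log10 q of 6.22 was the highest of the 19 peaks. This single peak also counted for Hoxb6 and Hoxb3, on either side. Hoxb9, the most posterior gene of the contiguous cluster, held a peak 302 bp from its lower-coordinate end at 1.56-fold with 98 fragments over 62.6. Hoxb8, Hoxb7, Hoxb2 and Hoxb1 had none within 5 kb, and their nearest lay 7.77, 13.8, 10.7 and 24.8 kb away. Hoxb13, separated from Hoxb9 by 74.7 kb and known for its role in the prostate, was the farthest from an H3K4me3 peak of all members, at 55.5 kb.

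In the Hoxd cluster the H3K4me3 peaks lay at the anterior and central genes. Hoxd1 had a peak from 74762966 to 74763235 on chromosome 2, with its midpoint 120.5 bp downstream of the gene start, at 2.40-fold with 62 fragments over 25.2. The peak at Hoxd3, a gene of the upper neck vertebrae, lay 1559 bp beyond the gene's upper-coordinate end at 1.94-fold. The peak at Hoxd8 lay inside the gene, 1220 bp downstream of its start, at 1.56-fold with 132 fragments over 84.1. It covered part of the promoter window of the noncoding gene Gm38462, which runs in the opposite direction. Hoxd4 had none within 5 kb, and neither had Hoxd9 to Hoxd13, whose nearest lay 5.63 kb (Hoxd9) to 34.2 kb (Hoxd13) away.

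The Hoxd1 and Gm38462 windows are shown beside each other because both lie under a peak in this cluster. Capitals mark the 64 and 207 bases inside the peak. The coordinates are chr2:74762730-74763029 (plus strand) and chr2:74705552-74705851 (minus strand), from RefSeq on GRCm38.p6.
Hoxd1: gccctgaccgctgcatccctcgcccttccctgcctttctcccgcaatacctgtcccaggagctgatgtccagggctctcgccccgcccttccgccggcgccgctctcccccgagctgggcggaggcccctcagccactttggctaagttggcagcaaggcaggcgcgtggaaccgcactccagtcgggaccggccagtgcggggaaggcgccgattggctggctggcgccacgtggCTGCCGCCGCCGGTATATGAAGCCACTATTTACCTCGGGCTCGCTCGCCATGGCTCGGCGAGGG
Gm38462: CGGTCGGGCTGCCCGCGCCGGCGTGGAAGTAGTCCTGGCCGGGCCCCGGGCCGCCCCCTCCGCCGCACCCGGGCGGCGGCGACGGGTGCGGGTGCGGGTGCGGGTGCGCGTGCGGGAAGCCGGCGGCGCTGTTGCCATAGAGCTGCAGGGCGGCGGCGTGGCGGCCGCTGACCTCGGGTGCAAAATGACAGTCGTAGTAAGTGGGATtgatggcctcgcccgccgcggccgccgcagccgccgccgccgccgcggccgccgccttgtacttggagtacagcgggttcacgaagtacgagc
The Hoxd1 window held 29 CG dinucleotides at 69.7% GC and the Gm38462 window 49 at 76%. Both are above the median of 13 CG dinucleotides, unlike the Hoxc4 window.

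The Hoxa cluster had the fewest H3K4me3 peaks. The stronger lay inside Hoxa7, from 52216889 to 52217350 on chromosome 6, 1453.5 bp downstream of the gene start, at 1.58-fold with 190 fragments over 119.7. It also counted for Hoxa3, needed for the thymus and parathyroid, whose listed start lay 4052.5 bp away. The other, inside the 44009 bp span of Hoxa3, had the lowest fold of the 19 peaks at 1.38, with a −log10 q of 0.485. It was the only one of the 19 with a q-value over 0.1. Hoxa2, Hoxa4, Hoxa5 and Hoxa6 had no peak in any list, and neither had Hoxa9 or Hoxa13, a digit and urogenital gene.

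**Figure D2:**
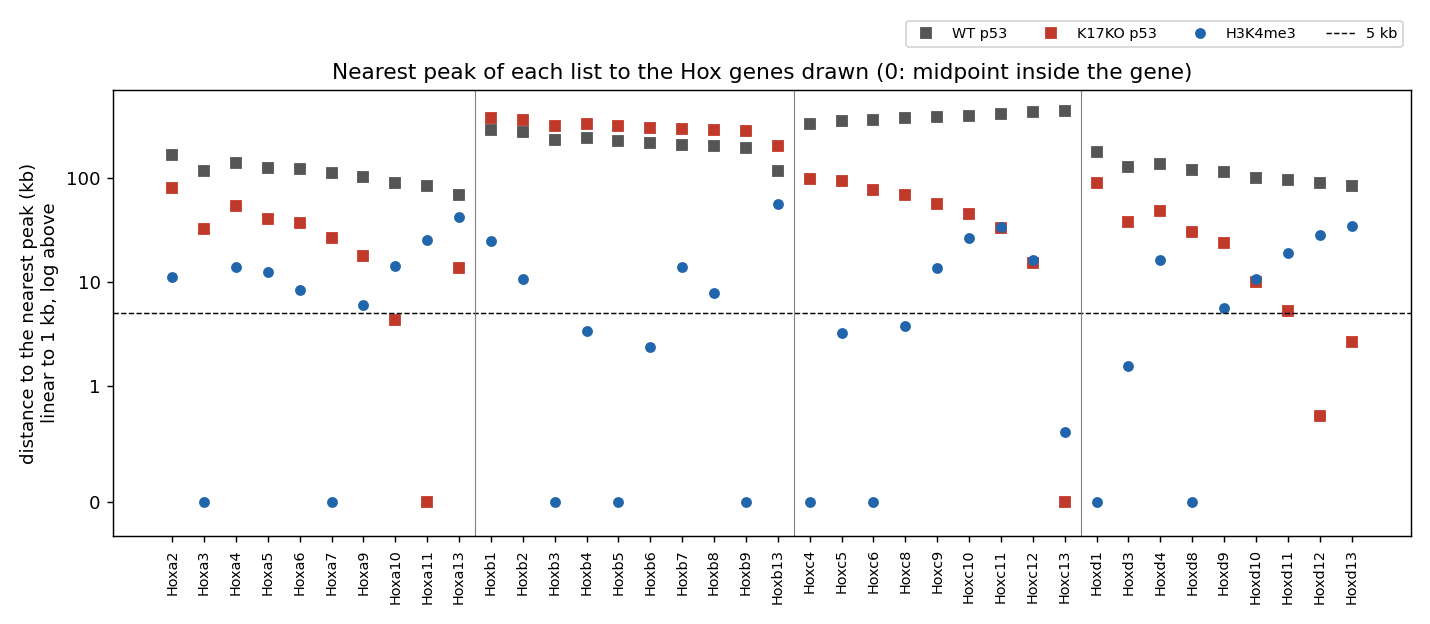
Distance in kb from the Hox genes drawn to the nearest peak midpoint of each list (linear to 1 kb, logarithmic above), with genes ordered by cluster and paralogue group. WT p53 peaks (dark squares) lie at least 68.1 kb from every member. K17KO p53 peaks (red squares) come within 5 kb of posterior genes of Hoxa, Hoxc and Hoxd, but lie 13.7 kb from Hoxa13. H3K4me3 peaks (circles) lie within 55.5 kb of every member.

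The 3 K17KO p53 peaks each lay within 1 kb of an end of a posterior gene. Of the 719 K17KO p53 peaks assigned to any protein-coding gene, 33.7% lay within 1 kb of such an end. Hox genes are short and densely packed, and the difference was not tested. Apart from the Hoxc13 peak, 1 of the 3 lay inside Hoxa11, a gene of the forearm and uterus. It spanned 52244979 to 52245303 on chromosome 6, 669 bp downstream of the Hoxa11 start, at 4.77-fold with 12 fragments over 1.72. Hoxa10, another uterine and vertebral patterning gene, counted the same peak at 4287 bp. This peak covered all of the promoter window of Hoxa11os, the noncoding gene transcribed from the opposite strand of Hoxa11, with its midpoint 102 bp from that gene's start. The distal peak in Hoxd, from 74674100 to 74674447 on chromosome 2, lay between Hoxd13 and Hoxd12, genes of the digits. It was 739.5 bp upstream of the Hoxd12 start and 2670.5 bp beyond the end of Hoxd13, at 3.94-fold with 7 fragments over 1.03.

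The Hoxa11os window (chr6:52244993-52245292, plus strand, RefSeq on GRCm38.p6) is the only promoter window of the table under a p53 peak at these genes, and all 300 bases are in capitals because all lie inside the peak.
Hoxa11os: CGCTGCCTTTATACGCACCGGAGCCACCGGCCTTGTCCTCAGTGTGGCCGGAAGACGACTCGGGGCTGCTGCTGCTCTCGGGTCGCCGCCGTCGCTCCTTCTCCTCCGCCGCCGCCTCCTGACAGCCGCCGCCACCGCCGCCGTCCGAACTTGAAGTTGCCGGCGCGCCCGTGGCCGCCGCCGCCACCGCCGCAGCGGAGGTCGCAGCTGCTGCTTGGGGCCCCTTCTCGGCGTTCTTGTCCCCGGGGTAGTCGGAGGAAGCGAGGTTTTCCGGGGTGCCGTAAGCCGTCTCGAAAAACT
It held 41 CG dinucleotides at 70.3% GC. The spaced core of a full p53 element (CNNG, 6 letters of any kind, CNNG) occurred 3 times, counting overlaps. The same core was found in 75.1% of the windows of all protein-coding genes. The core CATG and the 10-letter p53 consensus, which covers only part of a full p53 element, did not occur in this window. All 3 motifs read the same on both strands, so each search covered both.

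By fold the Hoxa11 and Hoxc13 peaks stood just above the middle of the K17KO list, whose median was 4.60, and the Hoxd12 peak below it, with 23.4% of the list lower. Their −log10 q values were 2.89, 2.95 and 1.46. The Hoxd12 peak, resting on 7 fragments, ranked 1034 of 1101 by p-value. None of the 3 overlapped an H3K4me3 peak, and the gaps were 766 bases at Hoxc13, 27629 at Hoxa11 and 31198 at Hoxd12. Hoxa11 and Hoxd12 had no H3K4me3 peak by the 5 kb rule.

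In the WT p53 list the nearest peaks to a member lay 68.1 kb from Hoxa13, 83.0 kb from Hoxd13, 116 kb from Hoxb13 and 330 kb from Hoxc4. The median distance over the 39 members was 169 kb, and that over all protein-coding genes was 242 kb. Of the 39 members 11 lay farther away than that coding median, and 78.1% of protein-coding genes were farther from one than Hoxa13. For the K17KO list the medians were 47.7 kb for members and 581 kb for all protein-coding genes, and for H3K4me3 10.7 and 66.7 kb. The K17KO and WT values come from separate calls and were not tested against each other, so a difference between the genotypes and a difference between the lists cannot be told apart.

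**Figure D3:**
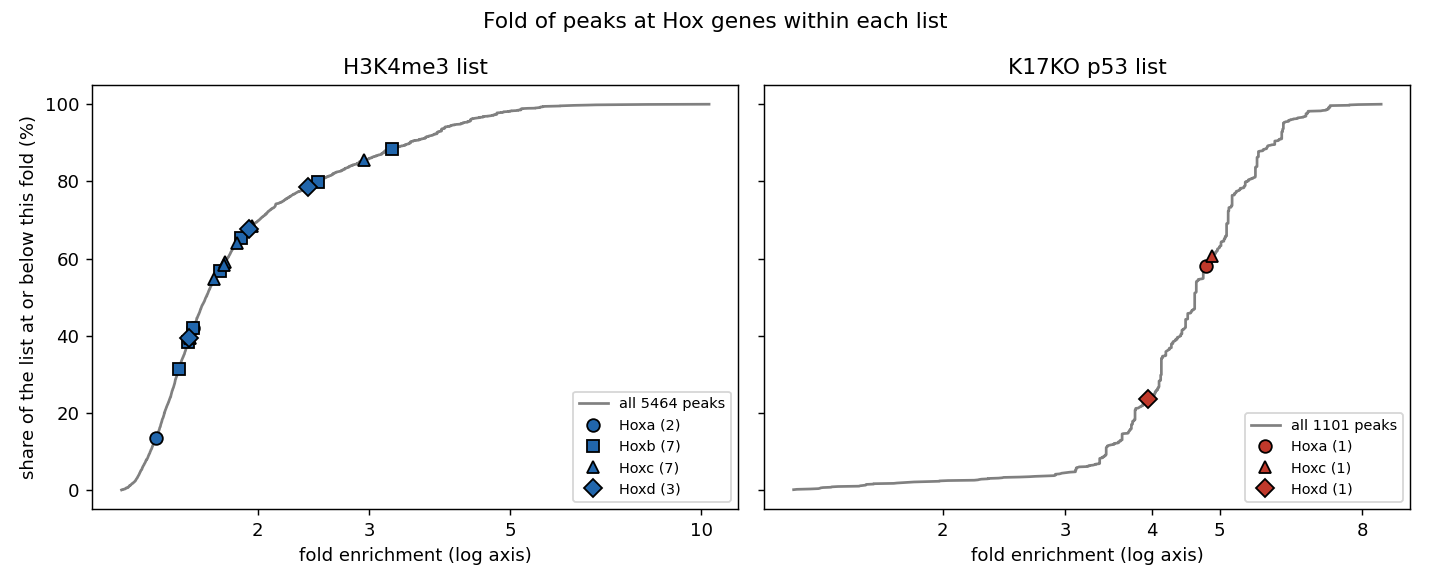
Cumulative share of each list (%) against fold enrichment (log axis) for H3K4me3 (left) and K17KO p53 (right), with the peaks at Hox genes marked by cluster. The 19 H3K4me3 peaks run from 1.38-fold to 3.25-fold around the list median of 1.66, and the 3 K17KO p53 peaks from 3.94-fold to 4.87-fold around 4.60.

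The 19 H3K4me3 peaks at Hox genes had a median fold of 1.77, against 1.66 in the whole list, and 12 of them were above that median. By −log10 p 8 of 19 were above the list median. They rested on a median of 82 fragments over a background of 46.7, both lower than the 148 over 90.7 of the whole list. Their median width was 381 bp, against 334 bp. Within 1 kb of a member's end lay 6 of 19 (31.6%), whereas 66.6% of the 4811 H3K4me3 peaks assigned to any protein-coding gene lay within 1 kb of such an end. This difference was not tested, and the measure takes gene ends only, so the Hoxc4 peaks at 8.5 and 575.5 bp from a listed start were not among the 6. Of the other 13, 4 lay over 5 kb from every member's end, inside Hoxa3 or Hoxb3.

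The promoter table gave 24 start windows for 22 of the 39 members. H3K4me3 peaks overlapped 2 of the 24 (8.33%), those of Hoxc4 and Hoxd1, against 5.31% of the windows of all protein-coding genes. No Hox window overlapped a p53 peak of either list. The Hox windows had a median of 14.5 CG dinucleotides, against 13, and ranged from 4 (Hoxa9, Hoxd4 and the upstream Hoxd11 start) to 45 (Hoxa13). The windows of the 7 members with an H3K4me3 peak had a median of 14 and those of the 15 without one a median of 15. At least 20 CG dinucleotides were present in 11 of 24 (45.8%), against 35.9%. The spaced p53 core occurred in 16 of 24 (66.7%), against 75.1%, and CATG in 11 (45.8%), against 56.3%. The 10-letter p53 consensus, only part of a full element, occurred in 3 (12.5%), those of Hoxa11, Hoxd4 and Hoxd10, against 7.37%.

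The rest of the Hox system was examined with gene lists. Hox cofactors are the homeodomain partners that bind DNA together with Hox proteins. Of 9 cofactors 4 had an H3K4me3 peak (44.4%, against 23.9% of all protein-coding genes), among them Meis2 (4.93-fold), Meis1 (1.83) and Pbx3 (1.56). Pknox2 held a K17KO p53 peak of 6.18-fold, 516.5 bp inward of an end, and no cofactor had a WT p53 peak. The p53 shares of all protein-coding genes were 3.79% (K17KO) and 6.75% (WT). The trithorax side, which methylates H3K4, had H3K4me3 peaks at 6 of 11 genes (54.5%, against 23.9% of all protein-coding genes), led by Men1 (1.66-fold) and the demethylase gene Kdm6b (1.65). Men1 also had a K17KO p53 peak (3.62-fold) and the complex subunit gene Ash2l a WT p53 peak (3.86-fold). The Polycomb side, which silences Hox genes, had H3K4me3 peaks at 10 of 17 (58.8%, against the same 23.9%), led by Pcgf2 (2.08-fold) and Cbx7 (2.06). Pcgf2 counted 3 H3K4me3 peaks, the strongest inside the neighbouring gene Cisd3, and Men1 counted 2, the strongest inside Map4k2. The strongest peaks of some other genes on these sides also lay inside a neighbour. Bmi1 counted a K17KO p53 peak (5.68-fold) that lay inside its neighbour Commd3.

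A chosen list of homeobox genes outside the clusters was the closest comparison. It does not hold all such genes, and the cofactors above are not in it. Of 76, 23 had an H3K4me3 peak (30.3%), 5 a K17KO p53 peak (6.58%) and 4 a WT p53 peak (5.26%). For Hox genes these shares were 38.5%, 12.8% and 0%, and for all protein-coding genes 23.9%, 3.79% and 6.75%. The differences were not tested. The highest H3K4me3 folds among the 76 were at Cux2 (5.47), Lhx8 (5.22), Barx1 (3.91) and Hopx (3.77), all above the 3.25 of the strongest Hox peak. They rested on only 13, 17, 9 and 12 fragments in that order, over backgrounds of 1.56 to 2.45. The Hox peak had 37 over 10.7, and the list median was 148 fragments. The K17KO p53 peaks lay at Lmx1b (5.09-fold), Meox1 (4.40), Cdx1 (4.28), Cux1 (3.997) and Otx1 (3.25). WT p53 peaks lay at Lmx1b (4.26), Zeb2 (3.67), Cux1 (3.64) and Cux2 (3.37). Of 14 hair shaft genes, among them the Hoxc13 target Foxn1, Lef1 and hair keratin genes, none had a peak in any list. The shares of all protein-coding genes given above are the comparison for these 14.

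**Figure D4:**
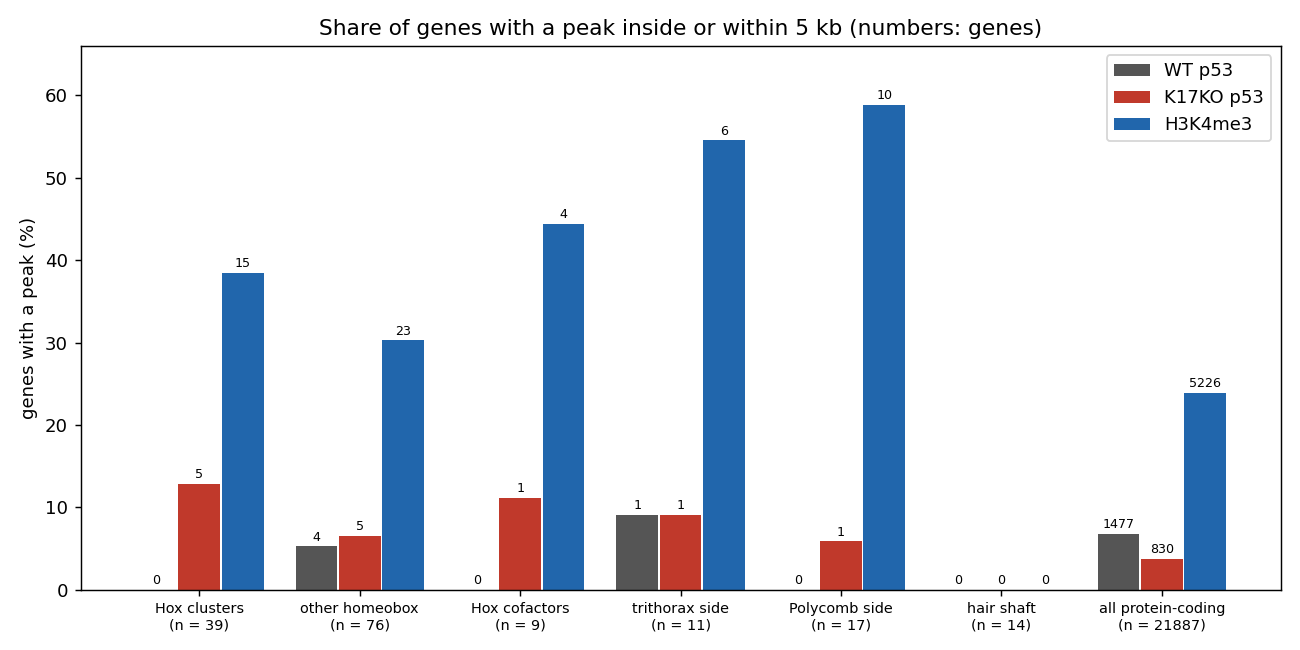
Share of genes (%) with a peak inside or within 5 kb for each gene group and list, with the number of such genes above each bar and the group size below. Hox cluster genes have no WT p53 peak, 5 of 39 with a K17KO p53 peak and 15 of 39 with an H3K4me3 peak, beside 6.75%, 3.79% and 23.9% of all protein-coding genes.

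In clusters this dense the counts depend on the window. The member closest to the 5 kb limit from within was Hoxc8 at 4759.5 bp from a 1.56-fold H3K4me3 peak, and the next beyond it was Hoxb4 at 5196 bp from the 3.25-fold peak. Hoxd11 lay 5284.5 bp from the Hoxd12 p53 peak. With a 20 kb window, H3K4me3 peaks were counted for 31 members (79.5%), against 32.9% of protein-coding genes. K17KO p53 peaks were then counted for 10 members (25.6%), against 5.94%. With a 1 kb window the H3K4me3 count was 10 (25.6%), against 21.1%. With peaks inside the gene only the H3K4me3 count was 9 (23.1%), against 18.5%, and the K17KO p53 count 2 (5.13%), against 3.04%. For K17KO p53 the count was 3 (7.69%) with a 1 kb window, with q limited to 0.01 and among the upper 50% of peaks by fold. The shares of protein-coding genes were 3.27%, 2.77% and 1.87% in that order.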

How the data were processed

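Chromatin immunoprecipitation libraries of 12 samples stand behind 3 deposited peak lists without headers. The submitters' processing notes name Bowtie2 2.2.5, SAMtools 1.7, MACS2 2.1.2 and mm10, without role or order. The sources used here do not name the libraries, time points, control or threshold behind a list. The deposited fold enrichment is a ratio of pileup to background, and the −log10 p and −log10 q that the authors deposited come from the caller. The integer score they deposited is the −log10 p times 10, cut to a whole number, and was not used. Folds rank peaks within a list only.

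Fragments and background were recovered from fold, taken as (fragments + 1) over (background + 1), and the Poisson p. Whole fragments reproduced p within 0.001 in −log10 for 100% of peaks in each list. They give the depth at each summit.

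Genes came from the RefSeq table of GRCm38.p6, which gives no strand or exons, and starts came from its promoter table. Exons and introns could not be separated. The work used Python 3.11.15, pandas 2.3.3, NumPy 2.4.6, SciPy 1.17.1 and matplotlib 3.10.9. On simulated data 200 of 200 planted gene assignments were recovered among 21887 genes for each list. The members and gene lists were chosen with earlier results of these data known. Named are all members with a peak, Hoxc13, cluster ends, list members with a p53 peak, up to 4 per list by highest H3K4me3 fold, and other genes in or within 100 kb of a cluster with a peak, the noncoding ones mostly as counts. Windows, q-values, the upper 50% by fold, summits and overlap were varied. Some genes are counted in the totals but not reported here by name or drawn.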

Additional observations from a re-analysis of the deposited data

How the results depend on the processing

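Of 63 values recomputed under the alternatives, 55 kept within 1.5 times of the reported count or within the spread of folds, and 8 did not. The number of Hox genes with a K17KO p53 peak went from 5 to 10 with a 20 kb window, to 3 with a 1 kb window, with q limited to 0.01 and among the upper 50% of peaks by fold, and to 2 with peaks inside the gene only. Hox genes with an H3K4me3 peak went from 15 to 31 with the 20 kb window and to 9 with peaks inside the gene only. H3K4me3 peaks assigned to Hox genes went from 19 to 12 in the upper 50% by fold. The 20 kb window adds genes around the same 3 p53 peaks, and the stricter settings remove genes or peaks by construction. The count of Hox genes with a WT p53 peak was 0 in all settings run. It could not change, because the nearest such peak lay 68.1 kb from a member and the widest window was 20 kb. These fixed counts of 0 are among the 55 values that kept. No paired analysis was possible because the lists name no library or replicate, and for the same reason no replicate could be left out. The K17KO p53 peaks at Hox genes rest on 7 to 12 fragments each, and no detection limit was tested.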

Other observations

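The clusters also hold noncoding genes. Of 25 noncoding genes other than microRNAs inside the cluster spans, 15 (60%) had an H3K4me3 peak within 5 kb and 2 (8%), Hoxa11os and LOC115490410, the K17KO p53 peak at Hoxa11. Over all 26828 genes of the table that are neither protein-coding nor microRNA genes, pseudogenes included, the shares were 5.78% and 1.02%. The genes inside the clusters lie close together and share peaks, and the difference was not tested. The H3K4me3 peaks with no member within 5 kb were a pair inside Gm53, in the gap between Hoxb13 and Hoxb9, at 1.51-fold with 110 fragments over 72.5 and 1.80-fold with 48 over 26.2. Hotair, the long noncoding RNA gene between Hoxc12 and Hoxc11, had no peak in any list, with its nearest H3K4me3 peak 23.5 kb and its nearest K17KO p53 peak 22.4 kb away. Hottip, beyond Hoxa13, had none either.

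The 6 microRNA genes of the clusters belong to the miR-10, miR-196 and miR-615 families, and miR-10 and miR-196 genes recur in several clusters. None had a p53 peak within 5 kb. Mir10a, next to Hoxb4, had an H3K4me3 peak at 2.31 kb (1.58-fold), and Mir615, in Hoxc5, had its nearest at 4.15 kb. These are 2 of 6 (33.3%), against 9.20% of the 1228 microRNA genes of the table. Mir10b, inside the Hoxd4 span, had its nearest at 20.2 kb. The mature sequences are shown to set the paralogues side by side, with the seed (bases 2 to 8) in capitals, from RefSeq.
miR-10a-5p: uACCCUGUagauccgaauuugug
miR-10b-5p: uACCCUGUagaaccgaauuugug
miR-196a-5p: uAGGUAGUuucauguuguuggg
miR-196b-5p: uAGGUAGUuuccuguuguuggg
Both miR-10 genes share the seed ACCCUGU, and all miR-196 genes share AGGUAGU.

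Among the 7 protein-coding genes within 100 kb of a cluster, Mtx2 beside Hoxd1 had an H3K4me3 peak (1.46-fold), and Calcoco2 and Ttll6 beside Hoxb13 shared one (2.05-fold). Skap1, which begins within 100 kb of Hoxb1, held a WT p53 peak (4.02-fold), but that peak lay outside the 100 kb flank. Thus 3 of the 7 had an H3K4me3 peak and 1 a WT p53 peak, against 23.9% and 6.75% of all protein-coding genes. Of 17 noncoding genes that reach into the same flanks, Gm28876, beyond Hoxc4, had an H3K4me3 peak (1.79-fold), Gm30528, which overlaps Hoxc4, held the same 2 peaks as that gene, and 4930445N08Rik, beyond Hoxd13, a WT p53 peak (4.02-fold). By count 2 of these 17 had an H3K4me3 peak and 1 a WT p53 peak. Over all genes that are neither protein-coding nor microRNA genes the shares were 5.78% and 2.66%. The homeobox genes Evx1 and Evx2, at the posterior ends of Hoxa and Hoxd, had no peak in any list.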
